A study of Mus musculus with 2 samples.

Results

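The Mir130 and Mir301 family comprises Mir130a, Mir130b, Mir301 (the gene of miR-301a) and Mir301b, which were chosen by name. All 4 were listed among the 1638 miRNA features of the deposited table, and the rule uses no measured value, although the family was picked for description with earlier results of these data known. The libraries compared were 1 smRNA-seq library of mESCs and 1 of prospermatogonia, fetal male germ cells that later give rise to spermatogonia. The mESCs were of the E14 line, labelled wild type, and the methods describe naive E14 mESCs as kept without feeder cells in serum-free medium with LIF and inhibitors of MEK and GSK3. The study's list of libraries calls this smRNA-seq library mESC, whereas it calls the RNA-seq libraries naive mESC. Whether this library came from cells in that medium is therefore not certain. The prospermatogonia were collected at E15.5 from C57Bl/6J embryos, also labelled wild type. The methods state that the mothers carried an Oct-4/GFP transgene, and the number of embryos pooled is not given in the sources used here. GEO's labels call these cells primordial germ cells, whereas the study calls them prospermatogonia. The comparison asks how the 3 loci of the family differ between them.

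A miRNA is cut from a hairpin RNA and guides Argonaute proteins to mRNAs that pair with its seed, the bases 2 to 8 from its 5′ end. Arms that share a seed can bind the same sites, so that the loci of a family can add to a common pool. The miR-130 and miR-301 arms are known to repress PPARγ, a regulator of fat cell formation, and miR-130a is known from endothelial cells, where it represses the homeobox genes Meox2 and Hoxa5. The hairpins of miR-130b and miR-301b are transcribed together in mammals, and miR-301a lies within Ska2, a gene for a protein of the kinetochore.

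The 3p arms carry the seed that defines the family, and mature arms are shown with the seed in capitals (RefSeq, GRCm38.p6). The RefSeq arms used here hold no 3p arm of Mir301b, so its 5p arm is shown beside that of Mir301.
miR-130a-3p: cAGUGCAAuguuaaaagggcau
miR-130b-3p: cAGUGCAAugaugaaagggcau
miR-301a-3p: cAGUGCAAuaguauugucaaagc
miR-301b-5p: gCUCUGACuagguugcacuacu
miR-301a-5p: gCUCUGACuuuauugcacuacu
The 3p arms of Mir130a, Mir130b and Mir301 carried the same seed, AGUGCAA, whose matching site in an mRNA reads UUGCACU. The 3p arms of Mir130a and Mir130b differed at 2 of 22 bases, by the substitutions U11A and A13G (miR-130a base first, positions from 1 at the 5′ end). The miR-301a arm differed from miR-130a at 10 of the 22 bases compared and from miR-130b at 11, the first of them at position 10. The 5p arms of Mir301 and Mir301b shared a different seed, CUCUGAC, with each other.

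Each deposited value belongs to a whole hairpin, so that reads of the 3p and the 5p arm could not be told apart. The hairpins are shown because they are the regions counted, with the mature arms of the RefSeq table in capitals.
Mir130a: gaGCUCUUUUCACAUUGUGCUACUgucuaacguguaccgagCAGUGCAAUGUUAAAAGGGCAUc
Mir130b: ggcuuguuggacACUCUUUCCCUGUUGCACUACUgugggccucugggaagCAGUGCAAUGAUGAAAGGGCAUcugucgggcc
Mir301: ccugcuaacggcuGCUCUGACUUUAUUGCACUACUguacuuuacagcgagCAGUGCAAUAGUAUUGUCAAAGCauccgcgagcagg
Mir301b: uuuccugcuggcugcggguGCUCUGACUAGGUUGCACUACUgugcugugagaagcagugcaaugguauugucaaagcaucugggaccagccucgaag
The run AGUGCAA occurred once in each of the 4 hairpins. No stretch longer than 17 nt of any of them was found in another of the RefSeq hairpins (1004 compared for each member), and the longest stretch shared between family members was 16 nt, in Mir301 and Mir301b. Mature arms of 22 or 23 nt were therefore distinct among these hairpins over their full length when matched exactly. The mismatches allowed in mapping and the handling of shorter reads or of other genomic copies are not given in the sources used here.

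The 4 features had exactly the positions of the GENCODE vM21 genes on GRCm38. Mir130a lies at chr2:84741115-84741178 on the minus strand, in no other annotated gene, 2459 bases from Ypel4 and 990 bases from Gm19426. Mir301 lies at chr11:87113004-87113089 on the plus strand, within Ska2 on the same strand and outside its exons, 3770 bases from its start. Mir130b lies at chr16:17124061-17124142 and Mir301b at chr16:17124400-17124496, both on the minus strand and 257 bases apart. Both lie within 2610318N02Rik on the same strand, outside its exons, and Mir301b is the nearer to its start at 671 bases against 1025. No listed feature outside the family was within 10000 bases of a member.

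In linear form the values were whole multiples of the value of 1 read, so that reads could be recovered. The unit is not given in the sources used here and was read as log2 RPM (reads per 1000000 reads of a library), which gave totals of 449643 reads for mESCs and 2869578 for prospermatogonia. On miRNA features there were 110455 and 155237 reads, 24.6% and 5.41% of these totals. Shares of miRNA reads are therefore given beside RPM, since they do not rest on the library totals. Intervals are 95% Wilson intervals or, for a change in the ratio of 2 members between libraries, 95% normal intervals on the log2 scale, and all cover counting error only, as PCR copies are not independent molecules. With 1 library per cell type, no difference has a replicate check and no test was run. Among features listed for pluripotent cells, all 12 had more than 3 reads in mESCs (24.7% of miRNA reads, against 3.25% in prospermatogonia). Of 12 features of the X-linked male germ cell cluster, 11 had more than 3 reads in prospermatogonia (10.6% of miRNA reads, against 0.0118% in mESCs). In prospermatogonia 6 of the 12 pluripotent features also had more than 3 reads, and in mESCs 2 of the 12 germ cell features did. These lists were chosen with earlier results of these data known, so they give no independent check of the labels.

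The family held 1502 reads in mESCs, 1.36% of the miRNA reads (1.29% to 1.43%), and 902 reads in prospermatogonia, 0.581% (0.544% to 0.620%). Its share of miRNA reads was 2.34-fold higher in mESCs, outside the counting error of both libraries. In RPM the family was at 3340 in mESCs and 314 in prospermatogonia, a log2 ratio of -3.41 (-3.53 to -3.29). All miRNA features together had a log2 ratio of -2.18, and the family lay below that value. The value for all miRNA features is set by the part of each library they held, 24.6% in mESCs and 5.41% in prospermatogonia. Fewer cells with a miRNA, fewer copies per cell and more of other small RNAs in the library cannot be told apart in such bulk samples.

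Mir130b, in the chromosome 16 pair, had 625 reads in mESCs and 118 in prospermatogonia, which corresponds to 1390 and 41.1 RPM. It ranked 27 among the features by reads in mESCs and 78 in prospermatogonia. Its share of miRNA reads was 0.566% (0.523% to 0.612%) in mESCs and 0.0760% (0.0635% to 0.0910%) in prospermatogonia, 7.44-fold lower. The log2 ratio in RPM was -5.05 (-5.36 to -4.80). It was number 19 from the lowest log2 ratio among the 203 features that reached 10 RPM in either library.

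Mir301b, its neighbour 257 bases away, was the lowest member in both libraries. It had 66 reads in mESCs and 31 in prospermatogonia, or 147 and 10.8 RPM. The share of miRNA reads was 0.0598% (0.0470% to 0.0760%) in mESCs and 0.0200% (0.0141% to 0.0283%) in prospermatogonia. This was a 2.99-fold lower share in prospermatogonia, and the log2 ratio in RPM was -3.65 (-4.38 to -3.15).

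Mir130a, the member outside any host gene, had 563 reads in mESCs and 362 in prospermatogonia, or 1252 and 126 RPM. Its share of miRNA reads was 0.510% (0.469% to 0.553%) in mESCs and 0.233% (0.210% to 0.258%) in prospermatogonia, 2.19-fold lower. The log2 ratio in RPM was -3.30 (-3.50 to -3.12). The listed features of blood and endothelium, where miR-130a is known, held 0.625% of the miRNA reads in mESCs and 0.110% in prospermatogonia. Of these 7 features, 3 had more than 3 reads in each library, in all 690 and 171 reads. Mir126, of endothelial cells, had 255 and 40 reads, Mir142, of blood cells, had 400 and 124, and Mir150 had 35 and 5. Mir144 and Mir223 had none in either library, and Mir451 and Mir486, of red blood cells, had none in mESCs and 1 each in prospermatogonia. The features of gonadal soma and mesenchyme held 3.56% and 0.878%, with 5 and 4 of 9 above 3 reads. Mir202, of the gonadal soma, had 0 reads in mESCs and 57 in prospermatogonia, and Mir140 had 280 and 558. The other features of that list had fewer reads in prospermatogonia or none in either library. Mir21 had 2215 and 486 reads, Mir143 had 1393 and 260, Mir214 had 28 and 2, Mir145 had 17 and 0, and Mir199b had 3 and 0. Mir199a-1 and Mir199a-2 had none. The part of such cells in the Mir130a reads was not tested.

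Mir301, within Ska2, was the exception in the family when shares were compared. It had 248 reads in mESCs and 391 in prospermatogonia, or 552 and 136 RPM. Its share of miRNA reads was 0.225% (0.198% to 0.254%) in mESCs and 0.252% (0.228% to 0.278%) in prospermatogonia. The log2 ratio of these shares was 0.17, and its interval of -0.06 to 0.40 included equal shares. In RPM the log2 ratio was -2.01 (-2.25 to -1.79), the smallest difference of the 4 members.

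**Figure D1:**
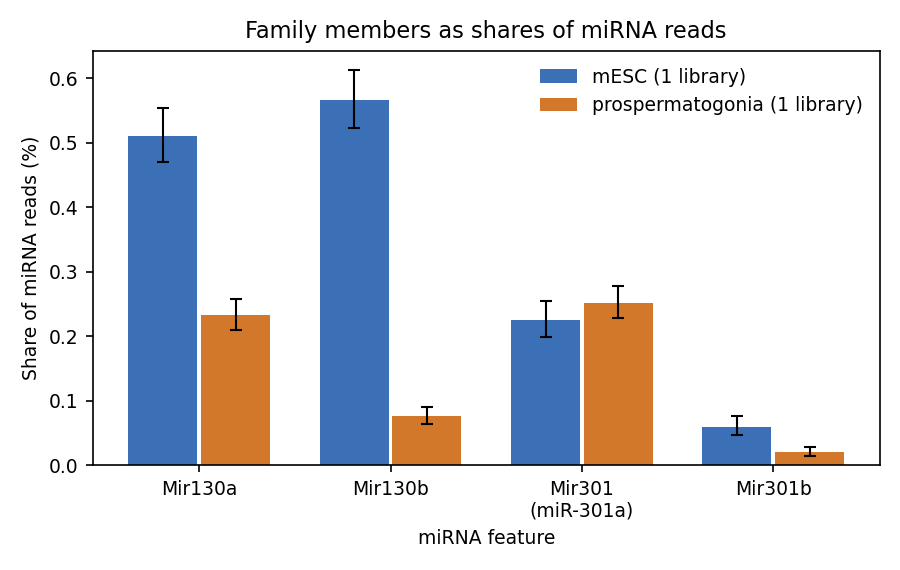
Share of miRNA reads (%) of the 4 family members in the mESC library (blue) and the prospermatogonia library (orange), with 1 library each. Bars start at 0 and whiskers are 95% Wilson intervals of counting error. Mir130b stood at 0.566% and 0.0760%, whereas the intervals of Mir301 overlapped at 0.225% and 0.252%.

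In RPM all 4 members were at least 2-fold lower in prospermatogonia, but so were 80.8% of the 203 features, and 9.85% were at least 2-fold higher. The median log2 ratio was -3.47 for the members and -2.52 for the 203 features. Scaled to the reads on all miRNA features, 3 of the 4 members, Mir130a, Mir130b and Mir301b, were at least 2-fold lower, where 39.9% of the features were. None of the members was at least 2-fold higher, where 20.2% of the features were. With this scaling the medians were -1.34 and -0.46. Scaled instead to the median ratio of the 111 features that reached 10 RPM in each library, Mir130b and Mir301b, 2 of the 4 members, were at least 2-fold lower, where 36.5% of the features were, and no member was at least 2-fold higher, where 22.2% were. All 4 members had passed the filter of 10 RPM, and each of them had more than 3 reads in both libraries. The filter used RPM before scaling in every comparison. A read was 2.22 RPM in mESCs and 0.348 RPM in prospermatogonia, so fewer reads were enough to pass through mESCs. More features passed through mESCs alone than through prospermatogonia alone. This tends to raise the share of lower features and to lower the medians of the 203 features. The scaled counts were not repeated on the 111 features.

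The make-up of the family differed between the libraries in the parts held by Mir130b and Mir301. In mESCs the chromosome 16 pair held 46.0% of the family's reads (43.5% to 48.5%), Mir130a 37.5% (35.1% to 40.0%) and Mir301 16.5% (14.7% to 18.5%). In prospermatogonia the pair held 16.5% (14.2% to 19.1%), Mir130a 40.1% (37.0% to 43.4%) and Mir301 43.3% (40.1% to 46.6%). The share of Mir130a differed by less than the counting error, whereas that of the pair decreased by 29.5 percentage points and that of Mir301 was 26.8 points higher in prospermatogonia. These shares use reads of the same library only and do not move with any scaling between libraries.

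**Figure D2:**
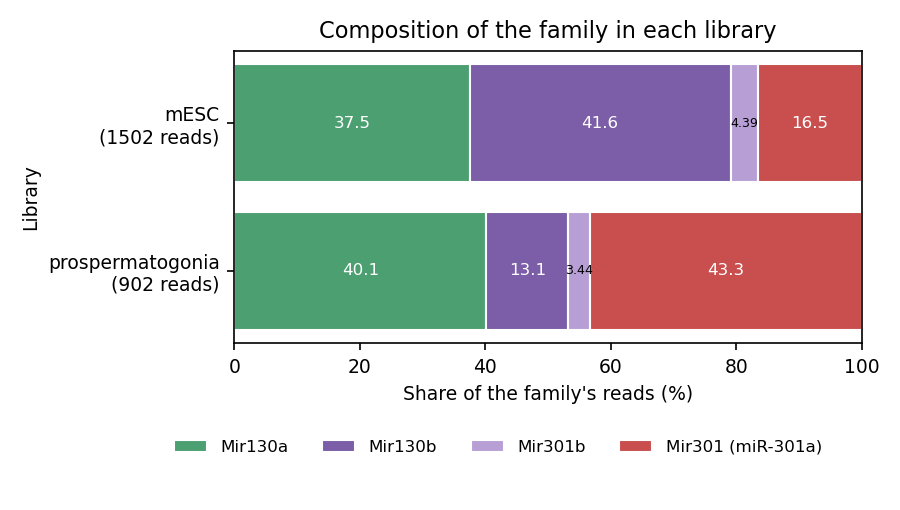
Composition of the family in the mESC library (1502 reads) and the prospermatogonia library (902 reads), as stacked shares of the family's reads (%). Mir130b (dark purple) took 41.6% in mESCs and 13.1% in prospermatogonia, Mir301 (red) 16.5% and 43.3%, and Mir130a (green) held similar parts of both bars.

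The order of the members by reads changed with this. In mESCs Mir130b and Mir130a led, with 1.11 reads of Mir130b per read of Mir130a (0.991 to 1.24), so that their order was within counting error. Mir301 followed with 2.27-fold fewer reads than Mir130a (1.96 to 2.64), and Mir301b was lowest. In prospermatogonia Mir301 and Mir130a led, again within counting error at a ratio of 1.08 (0.936 to 1.25). Mir130b followed, 3.07-fold below Mir130a (2.49 to 3.77), and Mir301b was lowest. Counted per base of the hairpin, Mir130a led in both libraries, with 8.80 reads per base in mESCs and 5.66 in prospermatogonia. This lead rests on its hairpin, the shortest of the family at 64 bases, since by reads it led in neither library. Reads of a mature arm need not scale with hairpin length. Per base, Mir130b was above Mir301 in mESCs (7.62 against 2.88 reads per base) and below it in prospermatogonia (1.44 against 4.55).

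The change in the ratio of any pair of members does not depend on hairpin length or on scaling. Mir301 had 0.397 reads per read of Mir130b in mESCs and 3.31 in prospermatogonia, an 8.35-fold higher ratio (6.48 to 10.8). The ratio of Mir301 to Mir130a was 2.45-fold higher in prospermatogonia (1.99 to 3.02), and that of Mir301 to Mir301b 3.36-fold (2.13 to 5.29). The ratio of Mir130a to Mir130b was 3.41-fold higher (2.69 to 4.32). Between Mir130a and Mir301b the change was 1.37-fold with an interval of 0.876 to 2.14, which included no change. Within the chromosome 16 pair, Mir130b had 9.47 reads per read of Mir301b in mESCs (7.35 to 12.2) and 3.81 in prospermatogonia (2.57 to 5.64). The neighbours in one host gene thus differed in their ratio by 2.49-fold between the libraries (1.56 to 3.98), with 31 reads of Mir301b in prospermatogonia as the smallest count.

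The RefSeq table held 7 mature arms with the seed AGUGCAA among 1738. The 3p arms of Mir130a, Mir130b and Mir301 were among them, and the others, miR-721, miR-130c, miR-6341 and miR-6389, belong to genes that were listed neither by name nor at their position. The family was then set beside miRNAs whose seed is the same core moved along the arm. These arms show how the seeds overlap.
miR-130a-3p: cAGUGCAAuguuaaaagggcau
miR-148a-3p: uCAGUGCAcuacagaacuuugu
miR-148b-3p: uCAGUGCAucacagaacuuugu
miR-152-3p: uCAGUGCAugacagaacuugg
miR-19a-3p: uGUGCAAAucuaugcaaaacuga
The sites that match these seeds read UUGCACU for miR-130, UGCACUG for miR-148 and miR-152, and UUUGCAC for miR-19, and each of the others shares a run of 6 bases with the miR-130 site. The miR-148 and miR-152 arms are known to repress the DNA methyltransferase Dnmt1, and miR-19a is made from the Mir17 cluster.

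Mir148a was the most abundant of these features, with 2529 reads in mESCs and 3985 in prospermatogonia, 2.29% and 2.57% of the miRNA reads. Mir148b had 240 and 217 reads, a log2 ratio of shares of -0.64 (-0.90 to -0.37), and Mir152 had 32 and 56 reads, a log2 ratio of shares of 0.32 (-0.31 to 0.94). Together the 3 features held 2.54% of the miRNA reads in mESCs and 2.74% in prospermatogonia, a log2 ratio of shares of 0.11 (0.04 to 0.18). Most of these reads were of Mir148a, and Mir148b and Mir152 summed without it were at -0.49 (-0.73 to -0.24). The family lay below both sums at -1.23 (-1.35 to -1.11), and its interval overlapped neither of theirs. Mir301 was at the level of Mir148a in this measure, at 0.17 for each. Mir19a had 133 and 44 reads, a log2 ratio of shares of -2.09 (-2.58 to -1.60), between those of Mir130b (-2.90) and Mir301b (-1.58). Mir19b-1 had 1 read in mESCs and 18 in prospermatogonia, and Mir19b-2 had 4 and 0. Their 3p arms are identical, so a read of that arm cannot be assigned to either copy, and no fold is given.

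**Figure D3:**
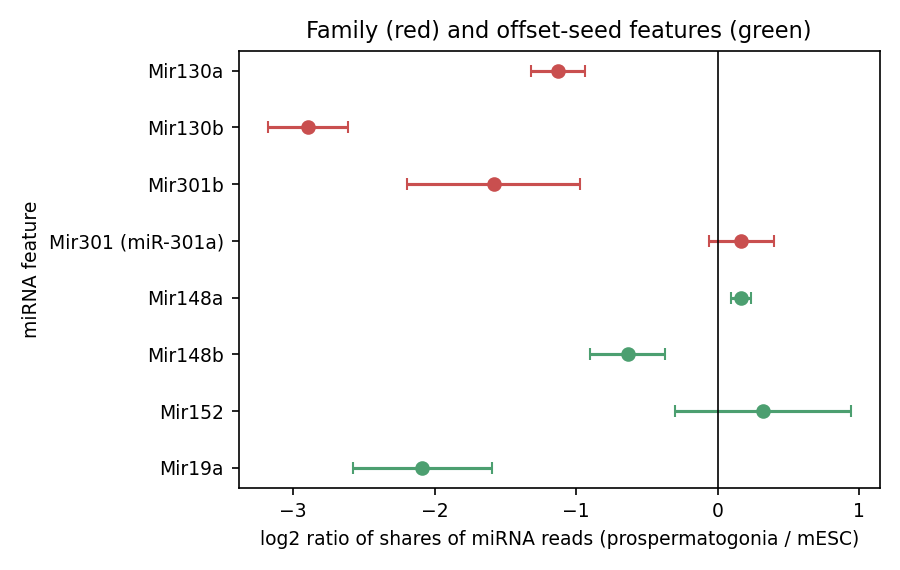
Log2 ratio of the shares of miRNA reads, prospermatogonia over mESC, for the 4 family members (red) and 4 features with an offset seed (green), with 95% intervals of counting error. The line at 0 marks equal shares. Mir130b was lowest at -2.90, and Mir301 (0.17) lay beside Mir148a (0.17).

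Features with levels like those of the members were found by the distance of log2(RPM + 1) over the 2 libraries, among features with a miRNA name. The nearest to Mir130b was Mir363 (657 and 142 reads in mESCs and prospermatogonia, distance 0.27), followed by Mir142 (0.65) and Mir294 (1.06). The nearest to Mir130a was Mir186 (700 and 338 reads, distance 0.33), followed by Mir294 (0.84) and Mir17 (0.91). Mir294 belongs to the Mir290 cluster of pluripotent cells. The nearest to Mir301 was Mir335 (282 and 311 reads, distance 0.38), then Mir26b (0.50) and Mir17 (0.51). Mir301b was nearest to Mir222 (63 and 31 reads, distance 0.07), then Mir28 (0.23) and Mir136 (0.40). With 2 libraries this likeness rests on 2 values per feature.

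**Figure D4:**
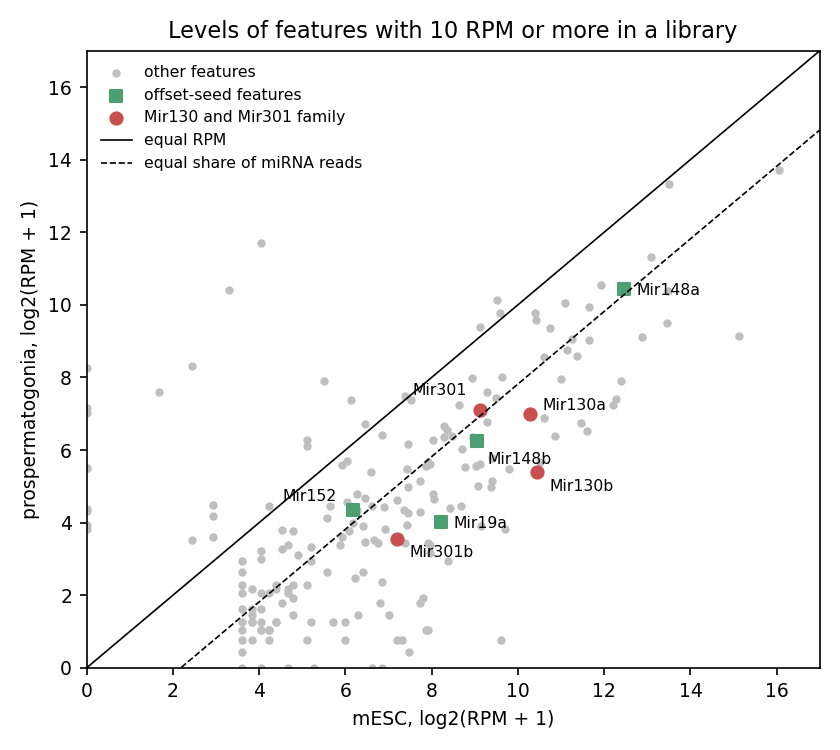
Levels of the 203 features that reached 10 RPM in either library, as log2(RPM + 1) in the mESC library (x axis) and the prospermatogonia library (y axis), both log2 axes. The solid line marks equal RPM and the dashed line equal shares of miRNA reads. All 4 family members (red) lie below the solid line, and Mir301 lies near the dashed line while Mir130b lies farthest below it of the 4.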

How the data were processed

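The authors trimmed the smRNA-seq reads and mapped them with Bowtie through piPipes. Their processing notes in GEO name Trim Galore 0.4.1, without saying for which data. Their methods name mm9, whereas GEO's list of builds names GRCm38, the build of the positions in the table. They deposited log2 values for 1638 miRNA features in 1 library of mESCs and 1 of prospermatogonia. The unit, the step that made the values, its use of strand and its handling of reads with several matches are not given in the sources used here. Features without a read were deposited as the log2 of 0.9 reads and set to 0. All other values were whole reads within 0.0165 reads.

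Ratios were log2((RPM + 1) / (RPM + 1)), which understates the change of low features, and ratios of shares had no pseudocount. Intervals of ratios had none either. Features that reached 10 RPM before scaling in either library entered counts of 2-fold differences. A count of 0 allows up to 3 reads, equal to 6.67 RPM for mESCs and to 1.05 RPM for prospermatogonia. Named were the members, features of the same or an offset seed, and the 3 named features nearest to each member. The members and lists were chosen with earlier results of these data known. Alternatives were other pseudocounts, scalings, filters and denominators. The scripts were tested on simulated data. Calculations used pandas 2.3.3 and numpy 2.4.6 under Python 3.11.15, and matplotlib 3.10.9 drew the figures. Other libraries of the study were not analysed here.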

Additional observations from a re-analysis of the deposited data

How the results depend on the processing

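No paired analysis was possible because the cell types have 1 library each and no test was run, and for the same reason no library could be left out. The family's summed share of miRNA reads stayed within its counting interval in each library, at 1.41% and 0.591%, when only features with a miRNA name formed the denominator (not run for single members), and the shares of the loci within the family did not change, since no member was at the lowest deposited value. The log2 ratios in RPM of the family, the 4 members and the chromosome 16 pair stayed within their intervals with pseudocounts of 0.1 and 5 RPM, with the lowest values as deposited, and with no pseudocount (chosen after the data were seen). Scaling to all miRNA reads adds 2.18 to every log2 ratio before the pseudocount, and scaling to the median ratio of 111 features adds 2.37. Under these scalings, in this order, the ratio of the summed family was -1.23 and -1.04 in place of -3.41, and Mir301 reversed to 0.17 and 0.36, with the other members still negative. At least 2-fold lower in prospermatogonia were 164 features, against 230 without a filter, 91 with 10 RPM or more in both libraries and 81 with scaling to miRNA reads. At least 2-fold higher were 20, against 40 without a filter, 5 with 10 RPM or more in both libraries and 41 with scaling to miRNA reads. Of the calls, 10.9% were higher in RPM and 33.6% with scaling to miRNA reads. Depth limits Mir301b most, with 31 reads in prospermatogonia.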
